A study of Mus musculus with 2 samples.

Results

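Pax1, Pax9, Barx1, Barx2, Dmrt2 and Dmrta2 are 6 transcription factor genes that were followed across the developing mouse mandible by their symbols, among 27998 genes listed for the E12.0 library and 31053 for the E9.5 library. All 6 were present in both lists. The E12.0 library held GFP-positive epithelial cells, isolated by flow sorting from mandibles of 6 pooled K14Cre;R26mT/mG littermates. The E9.5 library held the whole mandibular arches of 8 pooled embryos, epithelium and mesenchyme together and unsorted, and per the study's methods these embryos carried the same alleles. In such embryos Cre is driven by the Keratin 14 promoter, so that the E12.0 sort keeps cells in which that promoter has been active. Each stage is 1 pooled library with no replicate, so the intervals below are 95% intervals of counting error only, no p-value is given, and sex, embryo and animal-to-animal variation are not measured.

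Pax1 and Pax9 encode closely related paired-box factors known from the pharyngeal pouch endoderm, and Pax9 is also required for tooth development. Barx1 and Barx2 encode a pair of related homeodomain factors. Barx1 is best known from molar and stomach mesenchyme and Barx2 from epithelia and muscle. Dmrt2 and Dmrta2 encode factors with the DM DNA-binding domain, known from somites and from the forebrain, respectively. Epithelium posterior to the teeth will line the floor of the mouth, cover the tongue and bud into the salivary glands, whereas epithelium anterior to the teeth becomes lip and chin.

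Cells were taken into a gate by the unique molecular identifiers (UMIs, each marking 1 captured transcript) of genes that are not members. At E12.0 the gates were Sox2 (2708 cells with at least 1 UMI of this progenitor factor), Foxc1 (827 cells with at least 1 UMI of this forkhead factor), Foxa (494 cells with at least 1 UMI of Foxa1 or Foxa2, forkhead factors of endoderm and tongue epithelium) and Cxcl14 (5107 cells with at least 3 UMIs of this chemokine, which the study maps to the anterior epithelium). Of 11355 kept cells, 819 were in 2 or more of these gates and 3116 in none. Epcam-positive cells of E9.5 had at least 2 UMIs of Epcam, an epithelial adhesion gene, and more of them than of Prrx1, Prrx2 and Twist1 together. Of 12744 kept cells, 360 Epcam-positive cells with a Foxa1 or Foxa2 UMI formed the endoderm gate, 2037 Epcam-positive cells with an ectodermal marker and no Foxa UMI the epithelium gate, and 6378 cells with no Epcam and at least 2 UMIs of Prrx1, Prrx2 or Twist1 the mesenchyme gate.

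The gate names were checked against marker genes that the gates did not use. Over the endodermal list without Foxa1 and Foxa2 (Shh, Hhex, Sox17, Nkx2-1 and Cldn6), the endoderm gate held 191 counts per 1000000 UMIs (CPM, 179 to 203), the epithelium gate 154 CPM (149 to 158) and the mesenchyme gate 17.1 CPM. Endothelial cells (469 cells, gated by Cdh5 and Kdr) reached 221 CPM, so this sum does not single out endoderm. Of its genes Shh, a signal of foregut endoderm, was at 27.9 CPM in the endoderm gate, 2.69 CPM in the epithelium gate and 0.141 CPM in endothelial cells, whereas Cldn6 was at 152 CPM and 146 CPM in the first 2 of these and Hhex at 140 CPM in endothelial cells. Further, 185 of the 360 cells of the endoderm gate (51.4%) also carried a UMI of an ectodermal marker, and Perp, an epithelial adhesion gene that no gate used, was at 29.8 CPM against 29.2 CPM in the epithelium gate. The gate is therefore called the Foxa-positive Epcam cells below. Pdgfra, Col1a1, Col3a1 and Msx1, the mesenchymal genes that no gate used, summed to 158 CPM in the mesenchyme gate, 61.8 CPM in endothelial cells, 45.2 CPM in the epithelium gate and 33.8 CPM in the endoderm gate. At E12.0 the ectodermal list summed to 2178 CPM and 0 of the 11355 kept cells combined no Epcam UMI with 2 or more UMIs of Prrx1, Prrx2 or Twist1. The median kept cell held 6349 UMIs in the E12.0 library and 13460.5 in the E9.5 library, and 44 kept barcodes were shared by the libraries. Scrublet, which compares each cell with simulated mixtures, called 697 doublets at E12.0 (6.14%, median 12145 UMIs) and 386 at E9.5 (3.03%, median 20821.5 UMIs). At E12.0 the calls made up 9.69% to 13.8% of each main gate and 30.8% of the cells in 2 or more gates.

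On the GRCm38 build, GENCODE placed Pax1 on chromosome 2 (147361925 to 147393295, plus strand), Pax9 on chromosome 12 (56691767 to 56712822, plus strand) and Barx1 on chromosome 13 (48662998 to 48666507, plus strand). Barx2 lies on chromosome 9 (31846044 to 31913462, minus strand), Dmrt2 on chromosome 19 (25672411 to 25678991, plus strand) and Dmrta2 on chromosome 4 (109978053 to 109983687, plus strand). No 2 members share a chromosome. Genes annotated on the opposite strand overlap Pax1 (AI646519), Pax9 (Gm15524 and Slc25a21) and Barx2 (Gm31497). Of these AI646519 has counts of its own, at 30.7 CPM in thinned E9.5 Epcam-positive cells with Pax1 and 1.52 CPM in those without. The strand rule of the counting is not given in the sources used here, and whether reads of such partners entered the counts of the members was not tested.

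The 250 bases before the RefSeq start (GRCm38.p6, plus strand, 5′ to 3′) are shown for the pairs with the highest ratio of joint to expected cells, among the pairs for which that ratio could be given, Dmrt2 with Dmrta2 at E12.0 and Pax1 with Pax9 at E9.5. Capitals mark the CCAAT box (CCAAT) and the Sox core (ACAATG) on either strand. The windows are chr19:25672161-25672410 for Dmrt2, chr4:109977775-109978024 for Dmrta2, chr2:147364744-147364993 for Pax1 and chr12:56695221-56695470 for Pax9.
Dmrt2: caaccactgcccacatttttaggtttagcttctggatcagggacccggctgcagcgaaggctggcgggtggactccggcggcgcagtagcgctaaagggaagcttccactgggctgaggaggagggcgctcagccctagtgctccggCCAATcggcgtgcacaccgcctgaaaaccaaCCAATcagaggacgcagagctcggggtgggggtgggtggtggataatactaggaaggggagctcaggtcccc
Dmrta2: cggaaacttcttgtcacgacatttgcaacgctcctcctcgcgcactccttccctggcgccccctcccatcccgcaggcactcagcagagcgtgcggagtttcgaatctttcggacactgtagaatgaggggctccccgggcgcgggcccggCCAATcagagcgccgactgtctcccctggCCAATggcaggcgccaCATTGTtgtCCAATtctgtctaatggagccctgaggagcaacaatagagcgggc
Pax1: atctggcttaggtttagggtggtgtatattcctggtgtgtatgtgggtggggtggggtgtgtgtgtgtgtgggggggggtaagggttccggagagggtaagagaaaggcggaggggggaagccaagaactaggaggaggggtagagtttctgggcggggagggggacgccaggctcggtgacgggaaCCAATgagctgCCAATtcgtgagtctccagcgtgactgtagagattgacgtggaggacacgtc
Pax9: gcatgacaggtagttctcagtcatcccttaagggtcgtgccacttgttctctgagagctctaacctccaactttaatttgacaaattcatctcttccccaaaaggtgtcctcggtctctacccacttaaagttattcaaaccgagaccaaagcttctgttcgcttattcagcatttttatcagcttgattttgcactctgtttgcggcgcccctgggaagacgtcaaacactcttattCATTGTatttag
The Dmrt2 window held 2 CCAAT boxes, the Dmrta2 window 3 and the Pax1 window 2, whereas none was found in the Pax9 or Barx1 windows. CCAAT occurs in 33.8% of the 32851 promoter windows in the table. The Sox core was found once each before Dmrta2 and Pax9 and is held by 10.7% of windows. Neither TATAAA (12.4% of windows), TAATTA (4.84%) nor TGTTTAC (3.17%) was found before these 5 members. In GENCODE the Pax1 and Pax9 windows lie within the span of their own gene but touch no exon, while the Dmrt2 and Dmrta2 windows overlap exons of the non-coding genes 2610016A17Rik and Dmrta2os on the opposite strand. GC content was 62.4% for Dmrt2, 61.6% for Dmrta2, 58.8% for Pax1 and 43.6% for Pax9, against a median of 52.4% over all windows. The Barx1 window, which is not printed since it runs into the transcript, had a GC content of 85.6%, above that of 99.9% of windows. Barx2 had no entry.

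At E12.0 the members differed in their distribution over the main gates other than Cxcl14. Among these gates Pax9 and Barx2 were highest in Foxc1 and Foxa cells, and Dmrt2 was highest in Sox2 cells. Barx1 was high in all 3 of these gates, and Dmrta2 was higher in Sox2 and Foxc1 cells. A gene is called higher or lower here where the summed CPM of a gate and of all other kept cells differ by at least 1.5-fold with 5 CPM added to each, among genes with at least 5 CPM on either side. Pax1 did not reach 5 CPM on either side of any E12.0 gate and so was not evaluated there.

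**Figure D1:**
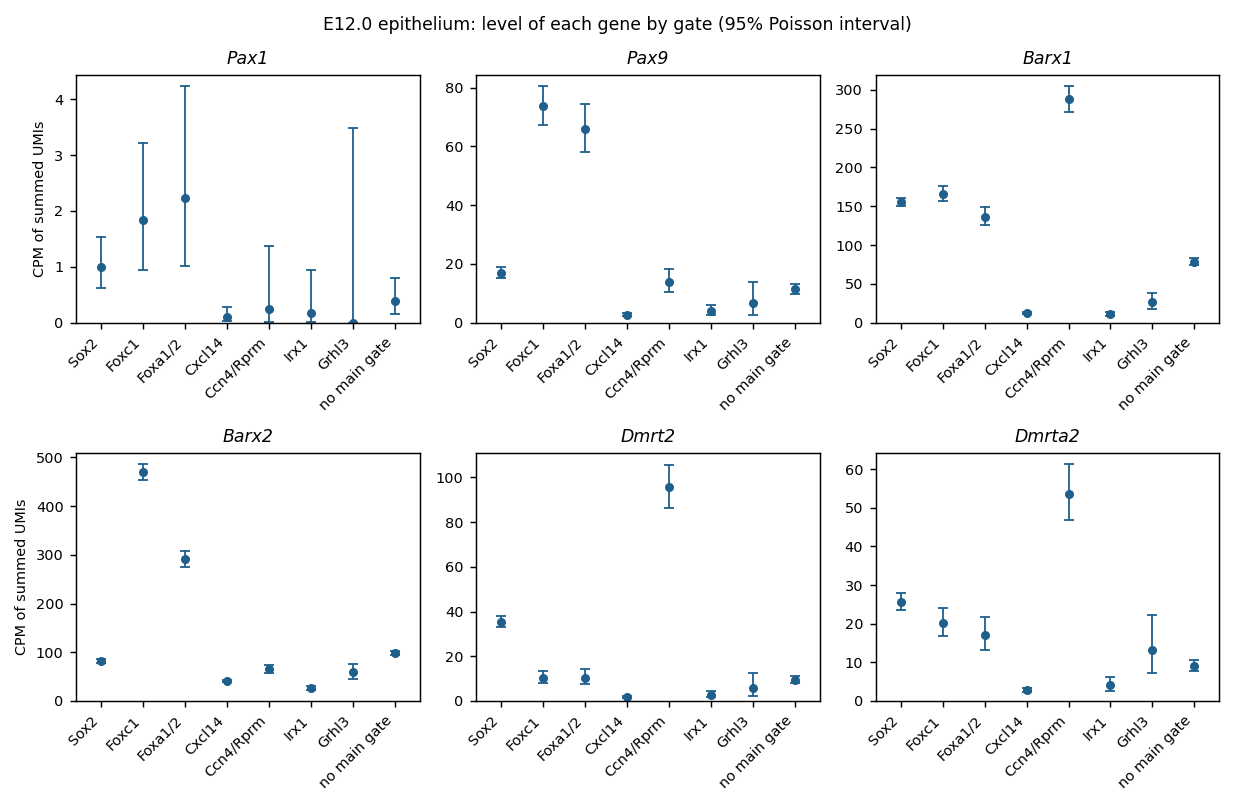
Level of each gene at E12.0 in CPM of summed UMIs (vertical axes, separate scales starting at 0) by gate (horizontal axes), with points for the gate and bars for 95% Poisson intervals. Barx2 peaks at 469 CPM in the Foxc1 gate, while Barx1, Dmrt2 and Dmrta2 peak in the Ccn4/Rprm gate.

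Pax9 was detected at 73.6 CPM (67.2 to 80.5) in Foxc1 cells and 65.9 CPM (58.2 to 74.3) in Foxa cells, values whose intervals overlap. These 2 gates share 164 cells. Sox2 cells followed at 17.0 CPM (15.2 to 18.8) and Cxcl14 cells at 2.66 CPM (2.16 to 3.24). Relative to all other kept cells, the log2 ratio of Pax9 was 3.31 (3.13 to 3.49) for the Foxc1 gate and 2.71 (2.50 to 2.91) for the Foxa gate. In the Sox2 gate it was 0.56 (0.37 to 0.75), which did not pass the fold. Cells of the Foxc1 gate were 7.28% of the library but held 44.7% of all cells with a Pax9 UMI. With cells drawn down at random to 4000 UMIs each (thinned, without the 916 cells below that depth), 27.4% of Foxc1 cells, 20.4% of Foxa cells, 5.98% of Sox2 cells and 0.560% of Cxcl14 cells had a Pax9 UMI. The corresponding unthinned shares were 39.2%, 35.02%, 9.34% and 1.41%.

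Pax1, the paralog of Pax9, gave only 41 UMIs in 30 cells of the whole E12.0 library. Of these UMIs, 21 were in Sox2 cells, 12 in Foxc1 cells and 9 in Foxa cells, and 4 were in Cxcl14 cells. Its level was 2.23 CPM (1.02 to 4.23) in Foxa cells, 1.84 CPM (0.949 to 3.21) in Foxc1 cells and 0.997 CPM (0.617 to 1.52) in Sox2 cells, with overlapping intervals. In the Shh gate (175 cells with at least 3 UMIs) there were 0 Pax1 UMIs, with an interval that reaches 2.58 CPM.

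Barx2 had its highest level in Foxc1 cells, at 469 CPM (453 to 486), and 83.7% of these cells carried a UMI of it (74.1% after thinning). In Foxa cells it was 291 CPM (275 to 309), in Sox2 cells 82.3 CPM (78.4 to 86.2) and in Cxcl14 cells 40.7 CPM (38.7 to 42.8), with no overlap between neighbours in this order. The log2 ratio was 2.94 (2.869 to 3.003) for the Foxc1 gate and 1.78 (1.69 to 1.87) for the Foxa gate. In the Sox2 gate Barx2 was at -0.29 (-0.37 to -0.21), short of the fold. It differed from the other members in the Cxcl14 gate, where 10.9% of thinned cells still had a Barx2 UMI.

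Barx1 was at 166 CPM (156 to 176) in Foxc1 cells, 155 CPM (150 to 160) in Sox2 cells and 137 CPM (126 to 149) in Foxa cells. The Foxc1 and Sox2 intervals overlap, and the Foxa interval lies just below that of Sox2. Cxcl14 cells were at 12.6 CPM (11.5 to 13.8). The log2 ratio was 1.85 (1.78 to 1.93) for the Sox2 gate, 1.36 (1.26 to 1.45) for the Foxc1 gate and 0.97 (0.84 to 1.10) for the Foxa gate. This last value turned to -0.10 when the Foxa gate required at least 2 UMIs.

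Dmrt2 was the member most restricted to Sox2 cells by share of UMIs. These cells held 77.4% of its UMIs and 74.2% of the cells with it, although they made up 23.8% of the library. Its level was 35.4 CPM (32.9 to 38.0) in Sox2 cells against 10.4 CPM (8.08 to 13.2) in Foxc1 cells, 10.4 CPM (7.49 to 14.1) in Foxa cells and 1.74 CPM (1.34 to 2.22) in Cxcl14 cells. The log2 ratio was 3.21 (2.99 to 3.44) for the Sox2 gate, and the intervals for the Foxc1 gate (-0.64 to 0.09) and the Foxa gate (-0.74 to 0.19) included 0.

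Dmrta2 was less uneven, at 25.6 CPM (23.5 to 27.9) in Sox2 cells, 20.2 CPM (16.9 to 24.0) in Foxc1 cells, 17.1 CPM (13.3 to 21.6) in Foxa cells and 2.82 CPM (2.31 to 3.42) in Cxcl14 cells. Each of the first 3 values overlaps its neighbour. The log2 ratio was 2.26 (2.05 to 2.47) for the Sox2 gate and 1.02 (0.74 to 1.29) for the Foxc1 gate, both past the fold, and 0.70 (0.33 to 1.06) for the Foxa gate, which did not pass with all kept cells but did without called doublets (0.86).

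By count, 3 of 5 members evaluated were higher in the Sox2 gate (Barx1, Dmrt2 and Dmrta2) and 0 were lower, where 1.55% of all 10200 genes evaluated were higher and 1.89% lower. In the Foxc1 gate 4 of 5 were higher (Pax9, Barx1, Barx2 and Dmrta2) and 0 lower, against 3.6% and 3.71% of all genes. In the Foxa gate 3 of 5 were higher (Pax9, Barx1 and Barx2) and 0 lower, against 2.86% and 2.69%. In the Cxcl14 gate all 5 evaluated members were lower and 0 higher, against 3.46% and 2.89%. The gates share cells, so these comparisons are not independent of each other. The members were chosen with earlier results of these data known, and the study drew its posterior marker Dmrt2 from this library. The counts are therefore no test against the share of all genes.

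The Cxcl14 gate gave log2 ratios of -3.65 (-4.04 to -3.29) for Dmrt2, -3.34 (-3.48 to -3.20) for Barx1, -3.06 (-3.38 to -2.76) for Pax9, -2.68 (-2.99 to -2.38) for Dmrta2 and -1.83 (-1.91 to -1.75) for Barx2. Much of what remained in this gate was in cells called doublets. These 495 cells held 16.7% of the UMIs of the gate but 81.6% of its Pax9 UMIs, 77.0% of its Barx1 UMIs, 75.0% of its Dmrt2 UMIs, 44.2% of its Dmrta2 UMIs and 36.2% of its Barx2 UMIs. Without them the log2 ratio was -5.39 for Dmrt2, -5.25 for Pax9, -5.19 for Barx1, -3.28 for Dmrta2 and -2.24 for Barx2. Barx1 was then at 3.48 CPM (2.86 to 4.21) and Pax9 at 0.586 CPM (0.347 to 0.926) in Cxcl14 cells, while Barx2 was still at 31.2 CPM (29.2 to 33.2). Scrublet calls cells that resemble mixtures, and 61.0% of the 292 cells in both the Sox2 and Cxcl14 gates were called. Single cells with genes of both regions may be called too, so the ratios without doublets are not independent support. Whether the called cells are mixtures was not tested. In the gates where the members were higher, leaving out called doublets moved no evaluated member's ratio by over 1.5 times.

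**Figure D2:**
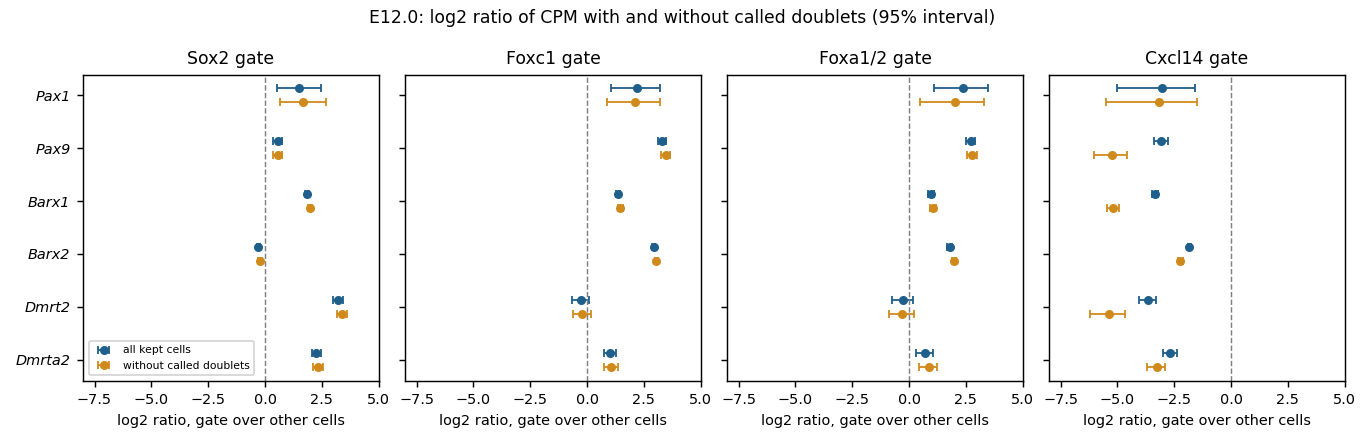
Log2 ratio of CPM between each E12.0 gate and all other kept cells (horizontal axes) for the 6 genes (vertical axis), with all kept cells in blue and without called doublets in orange, and bars for exact 95% intervals. The paired points lie close together except in the Cxcl14 gate, where Barx1 goes from -3.34 to -5.19.

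Binning cells by Cxcl14 UMIs, with bins set after the values were seen, gave a graded picture. In thinned cells Barx1 went from 141 CPM at 0 Cxcl14 UMIs to 46.8 CPM at 1 to 2, 7.87 CPM at 3 to 9 and 1.96 CPM at 10 to 19. Barx2 went from 152 CPM through 82.9 and 38.5 CPM to 14.1 CPM over the same bins. Dmrt2 went from 23.1 to 6.80, 1.22 and 0.196 CPM, the last value resting on 1 UMI. Along Sox2 UMIs in the same cells, Dmrt2 was at 4.78 CPM with 0 UMIs, 30.8 CPM (26.1 to 36.1) with 1, 51.6 CPM (41.2 to 63.9) with 2 and 110 CPM (88.7 to 135) with 3 or more. Barx2 went the other way, from 96.0 CPM with 0 Sox2 UMIs to 34.7 CPM (23.2 to 49.8) with 3 or more. Along Foxc1 UMIs, Barx2 was at 72.1 CPM with 0, 455 CPM (423 to 489) with 1 and 644 CPM (570 to 725) with 2 or more.

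**Figure D3:**
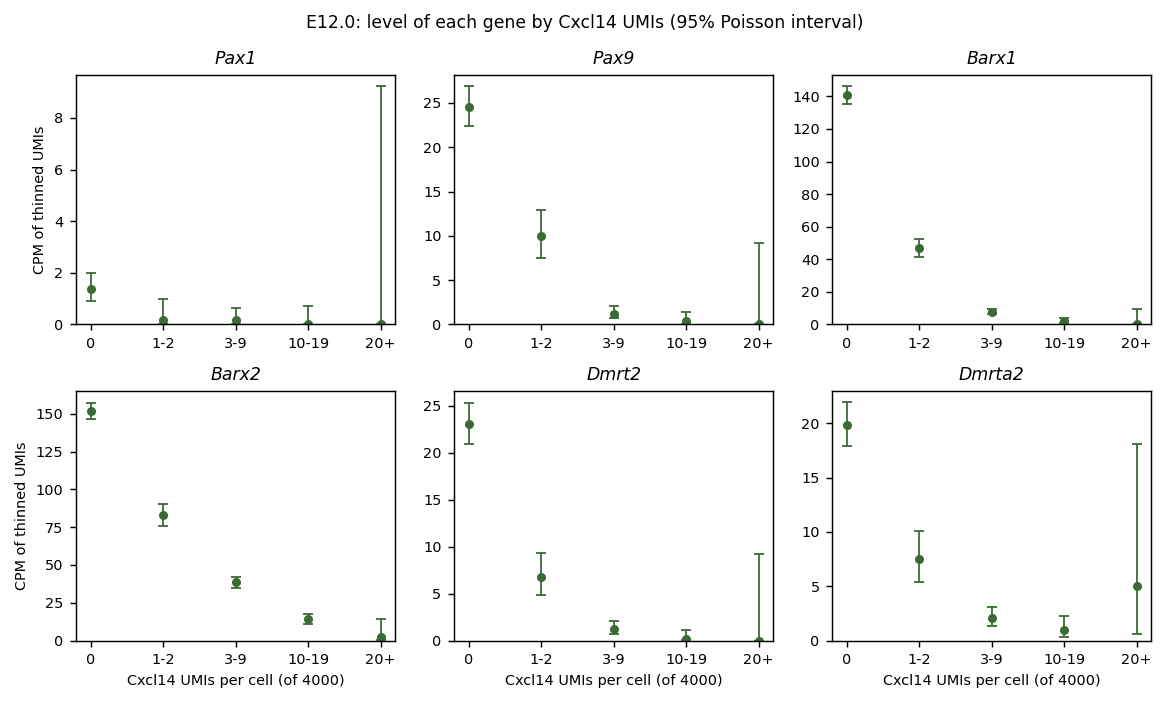
Level of each gene at E12.0 in CPM of thinned UMIs (vertical axes, separate scales starting at 0) by the number of Cxcl14 UMIs in a cell thinned to 4000 UMIs (horizontal axes), with points for all cells of a bin and bars for 95% Poisson intervals. Pax9, Barx1, Barx2 and Dmrt2 are highest in cells with 0 Cxcl14 UMIs, and the 100 cells with 20 or more hold 1 Barx2 UMI.

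Cells in a single gate, a split made after the values were seen, separated the members further. Cells in the Foxc1 gate alone (437 cells) had Barx2 at 575 CPM (549 to 603), Pax9 at 75.8 CPM (66.4 to 86.1) and Dmrt2 at 6.15 CPM (3.71 to 9.61). Cells in the Sox2 gate alone (2102 cells) had Barx2 at 59.8 CPM (56.0 to 63.8), Pax9 at 10.6 CPM (8.997 to 12.3) and Dmrt2 at 41.5 CPM (38.3 to 44.9). The intervals of Barx1 overlapped, at 173 CPM (159 to 189) and 160 CPM (154 to 167). In the 197 cells positive for Foxc1 and Sox2, Barx1 was at 247 CPM (224 to 272), above both single gates, and Dmrt2 at 28.3 CPM (20.9 to 37.6). Cells in the Foxa gate alone (158 cells) had Pax9 at 43.3 CPM (31.8 to 57.5) and Barx2 at 271 CPM (241 to 303). Both intervals lie below those of the Foxc1 gate alone. Dmrt2, at 8.28 CPM (3.79 to 15.7), overlapped it. The 3116 cells in no main gate, 27.4% of kept cells, held 25.2% of the Barx1 UMIs and 24.0% of the Barx2 UMIs. Their levels, 78.6 CPM for Barx1 and 98.0 CPM for Barx2, were close to 73.2 and 95.6 CPM over all kept cells.

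A further gate used Ccn4 (listed as Wisp1) and Rprm (at least 2 UMIs together), which the study places between the tooth and the tongue together with Dmrt2. In these 505 cells Barx1 reached 288 CPM (272 to 305), Dmrt2 95.8 CPM (86.6 to 106) and Dmrta2 53.7 CPM (46.8 to 61.3), each above its value in the 4 main gates. Pax9, at 14.0 CPM (10.6 to 18.1), and Barx2, at 65.2 CPM (57.6 to 73.5), were below their values in the Foxc1 gate. The study chose Ccn4 and Rprm on this library, so the pattern is not independent evidence. In the Irx1 gate (672 cells with at least 2 UMIs of this dental marker), Barx1 was at 11.2 CPM (8.67 to 14.3) and Pax9 at 3.91 CPM (2.48 to 5.86), with intervals overlapping those of the Cxcl14 gate, and Barx2 was at 26.7 CPM (22.7 to 31.2), below that gate.

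Joint detection asked whether members occur in the same cells. For each of the 15 pairs, the number of thinned cells with both genes was divided by the number expected from the product of their shares, and a pair is given where at least 5 joint cells were expected. Over all kept E12.0 cells 10 pairs could be given, and 9 were found together more often than expected. The highest ratio was 5.11 (3.99 to 6.44) for Dmrt2 with Dmrta2, from 71 joint cells against 13.9 expected. Next came Barx1 with Dmrt2 at 4.76 (4.19 to 5.39), so that 65.3% of cells with Dmrt2 also had Barx1. Barx1 with Dmrta2 was at 3.90 (3.39 to 4.47), Pax9 with Barx2 at 3.50 (3.12 to 3.91) and Pax9 with Barx1 at 2.96 (2.55 to 3.43). The exception was Barx2 with Dmrt2, at 0.978 (0.767 to 1.23), from 73 joint cells against 74.6 expected. In unthinned cells this pair was at 1.15 (0.994 to 1.33), from 183 joint cells against 158.5 expected. With at least 2 UMIs of each gene in unthinned cells it was at 0.363, so its side of 1 depended on depth and threshold.

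**Figure D4:**
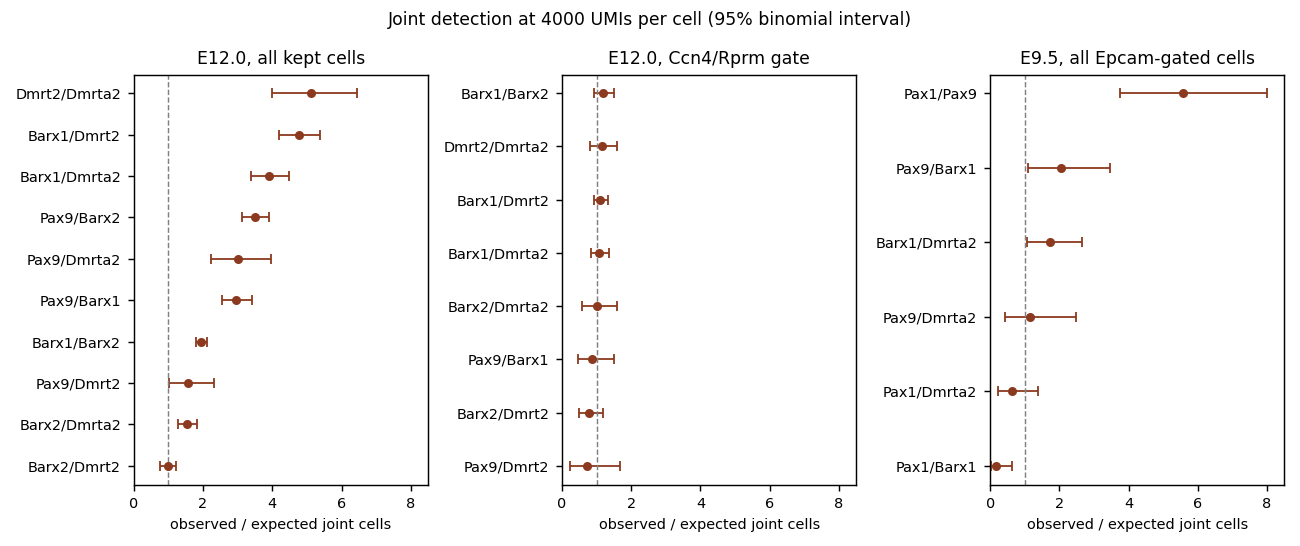
Ratio of observed to expected cells with both genes of a pair (horizontal axes, dashed line at 1) for the pairs that could be given (vertical axes), in cells thinned to 4000 UMIs, with bars for 95% intervals. Over all E12.0 cells Dmrt2/Dmrta2 is at 5.11 and Barx2/Dmrt2 at 0.978, all 8 intervals of the Ccn4/Rprm gate include 1, and at E9.5 Pax1/Pax9 is at 5.58 and Pax1/Barx1 at 0.174.

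Within gates 31 of 35 ratios were closer to 1 than over all cells, and the other 4 were all of Barx2 with Dmrt2, at 0.859 in Foxa cells, 0.820 in Sox2 cells, 0.793 in the Ccn4/Rprm gate and 0.539 in Foxc1 cells, with intervals that include 1. A ratio cannot exceed the inverse of the larger share, which lowers its limit where a member is common. After thinning Barx2 was in 74.1% of Foxc1 cells and Barx1 in 60.4% of Ccn4/Rprm cells. Barx2 with Dmrt2 was already near 1 over all cells. How far this limit and the choice of gates set the ratios was not tested, and the count of closer ratios is no test of joint detection. In Sox2 cells 7 of 10 pairs were found together more often, with Pax9 and Barx2 at 2.63 (2.10 to 3.25) and Dmrt2 and Dmrta2 at 2.27 (1.74 to 2.91). In Foxc1 cells only Barx1 with Dmrt2, at 2.12 (1.16 to 3.53), of 9 pairs had an interval above 1. In Foxa cells 2 of 7 pairs did, Pax9 with Barx2 at 1.35 (1.06 to 1.68) and Barx1 with Dmrta2 at 1.87 (1.06 to 3.06). In the Ccn4/Rprm gate 0 of 8 did after thinning. Without thinning, which leaves differences of depth in place, some pairs there had intervals above 1. They were Pax9 with Barx2 at 1.97 (1.26 to 2.92), Dmrt2 with Dmrta2 at 1.31 (1.07 to 1.59) and Barx1 with Dmrta2 at 1.18 (1.006 to 1.36). The intervals of the other pairs given included 1. Leaving out called doublets changed no count of pairs over all E12.0 cells. Of all thinned E12.0 cells 2.77% had UMIs of 3 or more members, against 11.4% of Foxc1 cells, 5.79% of Sox2 cells and 0.0623% of Cxcl14 cells.

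The genes that most distinguished E12.0 cells with a member from those without were listed by fold with 5 CPM added, among genes in at least 10% of the cells with it. For Pax9 they included Foxc1 (6.99-fold), Barx2 (4.90-fold), the chondrogenic and glandular factor Sox9 (4.71-fold) and the GDNF receptor gene Gfra1 (4.53-fold). For Barx2 they were Foxc1 (7.54-fold), Col14a1 (5.57-fold), Pax9 (5.55-fold), Sox9 (5.25-fold) and Cpm (4.99-fold). Foxc1 and Sox9 thus stood in the first 5 of both Pax9 and Barx2. Dmrt2 was led by Rprm (6.99-fold), Eya4 (6.26-fold), Barx1 (5.70-fold), Wisp1 (5.23-fold) and Sox2 (4.91-fold), and Dmrta2 by Barx1 (4.64-fold), Rprm (4.50-fold), Dmrt2 (4.37-fold), Foxe1 (3.89-fold) and Wisp1 (3.75-fold). Barx1 was led by Dmrt2 (6.34-fold), Tshz2 (6.24-fold), Egfl6 (5.55-fold), the chloride channel gene Ano1 (5.22-fold) and Eya4 (5.14-fold). Pax1 was in too few E12.0 cells for such a list.

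At E9.5 the gate with the highest level differed between members. Pax1 and Pax9 were highest in the Foxa-positive Epcam cells, Barx2 in the ectodermal epithelium gate, and Barx1 in mesenchyme with Hand2, while Dmrt2 was almost undetected. Endothelial cells gave a level for comparison, for genes not known from endothelium, that rests on few UMIs. It was 0.564 CPM for Pax1 (4 UMIs), 0.705 CPM for Pax9 (5), 0.282 CPM for Barx2 (2) and 1.97 CPM for Dmrta2 (14).

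**Figure D5:**
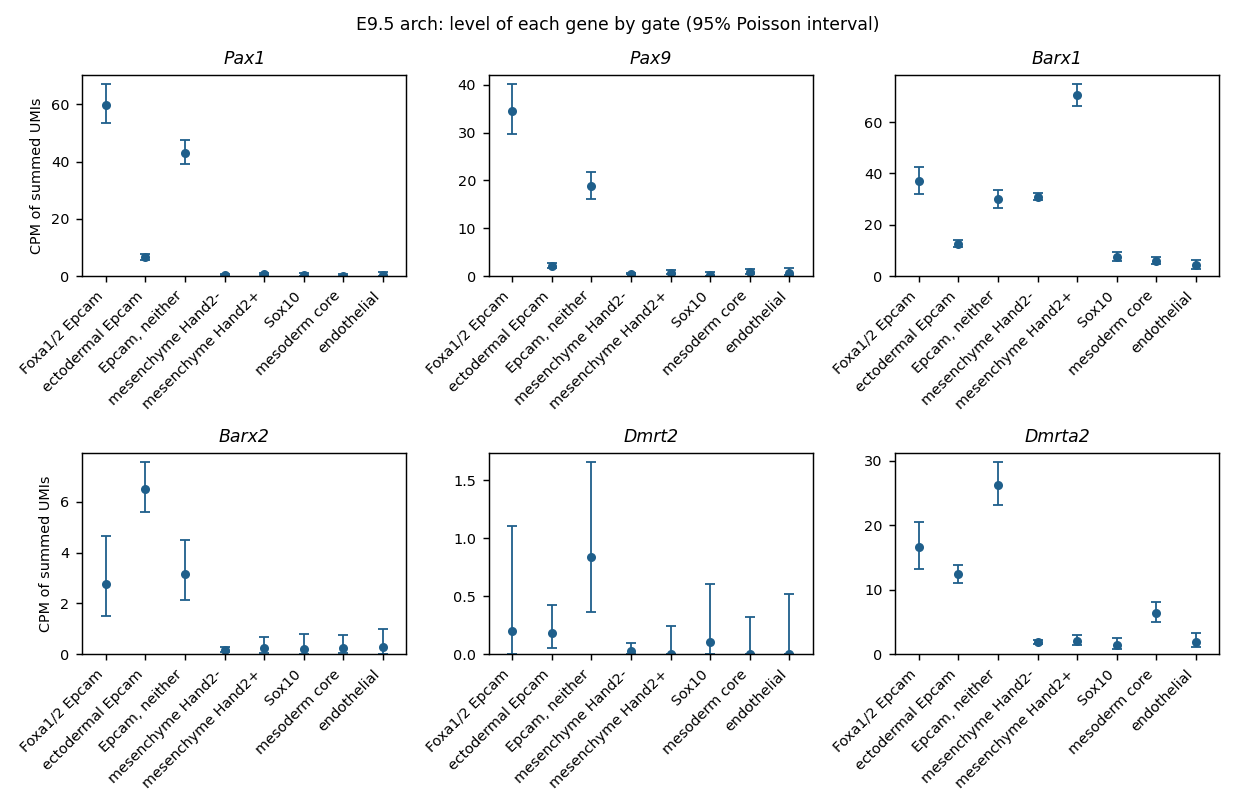
Level of each gene at E9.5 in CPM of summed UMIs (vertical axes, separate scales starting at 0) by gate (horizontal axes), with points for the gate and bars for 95% Poisson intervals. Pax1 is at 59.9 CPM in the Foxa1/2 Epcam gate and 0.564 CPM in endothelial cells, and Barx1 is highest, at 70.6 CPM, in Hand2-positive mesenchyme.

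Pax1 was at 59.9 CPM (53.3 to 67.0) in the Foxa-positive Epcam cells, 6.73 CPM (5.79 to 7.77) in the epithelium gate and 0.582 CPM (0.436 to 0.761) in the mesenchyme gate. The mesenchymal value overlaps the endothelial one (0.154 to 1.44, from 4 UMIs), at median depths of 14826.5 and 14777 UMIs. It was not resolved from that level, and the source of these UMIs was not tested. After thinning 14.0% of the Foxa-positive Epcam cells had a Pax1 UMI, against 0.191% of mesenchymal cells and 0 of 459 endothelial cells. The log2 ratio of Pax1 was 3.70 (3.50 to 3.90) for the Foxa-positive Epcam cells and -4.50 (-4.93 to -4.11) for the mesenchyme gate. The 790 Epcam-positive cells with neither a Foxa nor an ectodermal UMI held more Pax1 UMIs than any main gate, 39.3% of the total, at 43.1 CPM (39.0 to 47.5).

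Pax9 followed Pax1 in order, at 34.6 CPM (29.7 to 40.1) in the Foxa-positive Epcam cells, 18.8 CPM (16.1 to 21.7) in the Epcam cells with neither marker, 2.11 CPM (1.60 to 2.73) in the epithelium gate and 0.571 CPM (0.426 to 0.749) in mesenchyme. Its log2 ratio was 4.06 (3.78 to 4.32) for the Foxa-positive Epcam cells and -3.42 (-3.86 to -3.001) for the mesenchyme gate. Thus the paralogs shared an order of gates at E9.5. At E12.0 they differed in amount, with 1011 UMIs of Pax9 and 41 of Pax1. The order of Foxa, Foxc1 and Sox2 cells was not resolved for Pax1 at E12.0, since its intervals overlap. Heart markers (Tnnt2, Myl7 and Nkx2-5) summed to 68.6 CPM in the Foxa-positive Epcam cells and 36.7 CPM in the epithelium gate, of which Nkx2-5, also a gene of the pouch list, made up 55.3 CPM and 26.3 CPM. Their part in these results was not tested.

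Barx2 was at 6.51 CPM (5.59 to 7.54) in the epithelium gate, 3.14 CPM (2.12 to 4.49) in the Epcam cells with neither marker, 2.77 CPM (1.51 to 4.64) in the Foxa-positive Epcam cells and 0.198 CPM (0.117 to 0.312) in mesenchyme. The middle values overlap. The epithelium gate held 62.2% of the cells with a Barx2 UMI and 16.0% of all cells, and its log2 ratio was 3.13 (2.77 to 3.50). Dmrta2 was at 26.3 CPM (23.2 to 29.8) in the Epcam cells with neither marker, 16.6 CPM (13.2 to 20.6) in the Foxa-positive Epcam cells and 12.4 CPM (11.1 to 13.8) in the epithelium gate, the last 2 with overlapping intervals, and at 6.42 CPM (5.04 to 8.06) in mesoderm core cells (832 cells, gated by Myf5, Tcf21 and Tbx1). Mesenchyme, at 1.93 CPM (1.66 to 2.24), was at the endothelial level. Dmrt2 gave 17 UMIs in the whole library, never more than 1 in a cell, and 13 of them were in Epcam-positive cells outside the Foxa gate.

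Barx1 was the only member with its largest number of UMIs in mesenchyme, which held 65.6% of them. The mesenchyme gate is large, with 6378 of the 12744 kept cells, and held 58.1% of the cells with a Barx1 UMI. The level of Barx1 was 37.6 CPM (36.4 to 38.9) in mesenchyme, 37.0 CPM (31.9 to 42.7) in the Foxa-positive Epcam cells and 12.7 CPM (11.4 to 14.1) in the epithelium gate. The first 2 values overlap. Endothelial cells were at 4.37 CPM (2.97 to 6.205). The log2 ratio was 0.65 (0.57 to 0.73) for the mesenchyme gate, just short of the fold with 5 CPM added (past it without called doublets, at 0.73), and -1.47 (-1.63 to -1.31) for the epithelium gate. Within mesenchyme Barx1 was at 70.6 CPM (66.5 to 74.9) in the 964 cells with a UMI of Hand2, a factor of the distal arch, and 30.9 CPM (29.7 to 32.2) in the 5414 without, a log2 ratio of -1.19 (-1.29 to -1.08). Of all 9230 genes evaluated, 2.49% were lower by the fold in cells without Hand2. Heart markers summed to 53.6 CPM in the Hand2-positive and 5.03 CPM in the Hand2-negative cells (38.5 and 1.81 CPM without Nkx2-5), and their part in this difference was not tested. The other 5 members were at most at 2.15 CPM on either side and were not evaluated.

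By count, 3 of 4 members evaluated were higher in the Foxa-positive Epcam cells (Pax1, Pax9 and Dmrta2) and 0 lower, against 10.7% of all genes higher and 4.45% lower. In the epithelium gate 2 of 4 were higher (Barx2 and Dmrta2) and Barx1 was lower, against 10.4% and 4.7%. In the mesenchyme gate 3 of 4 were lower (Pax1, Pax9 and Dmrta2) and 0 higher, against 9.54% and 1.91%. Since the members were chosen with earlier results known, these counts too are no test against those shares.

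In the 3124 thinned Epcam-gated cells of E9.5 the paralogs Pax1 and Pax9 were found together 5.58 times (3.74 to 7.99) the number given by the product of their shares, in 29 cells against 5.20, so that 30.5% of cells with Pax9 had Pax1. Pax1 and Barx1 shared 2 cells against 11.5 expected, a ratio of 0.174 (0.0211 to 0.628), and without thinning the ratio was 0.359 (0.209 to 0.573), from 17 cells. Pax9 with Barx1 was at 2.04 (1.08 to 3.48) after thinning but at 1.06 without it, and at 0.786 with at least 2 UMIs of each. Barx1 with Dmrta2 was at 1.73 (1.06 to 2.67). Within the Foxa-positive Epcam cells 1 pair could be given after thinning. Pax1 with Barx1 was again low, at 0.156 (0.00394 to 0.862), from 1 cell against 6.42 expected (0.209, 0.0769 to 0.450, from 6 cells without thinning). Without thinning, which leaves differences of depth in place, Pax1 with Pax9 in these cells was at 2.30 (1.77 to 2.90), below its ratio over all Epcam-gated cells. It rested on 57 cells against 24.8 expected. Pax9 with Barx1 was then at 0.555 (0.288 to 0.957), against 1.06 over all Epcam-gated cells.

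Among Epcam-gated cells of E9.5, those with Pax1 were led by the homeobox genes Hmx2 (7.51-fold) and Hmx3 (5.28-fold), by AI646519 (5.47-fold), which overlaps Pax1 on the other strand, by the WNT agonist gene Rspo2 (5.21-fold) and by Pax9 (4.59-fold). Cells with Pax9 were led by Pax1 (6.45-fold), the muscle genes Tnnt1 (4.85-fold) and Myh7 (4.38-fold), Uchl1 (4.07-fold) and Ckb (3.28-fold). Cells with Barx1 were led by Foxe1 (4.98-fold), a thyroid and oral epithelial factor that also stood in the first 5 of Dmrta2 at E12.0, then by Pmp22 (4.63-fold), Gm12446 (4.24-fold), Cdh6 (3.46-fold) and Shisa2 (3.45-fold). In mesenchyme Barx1 was led by Dlx6os1 (3.52-fold) and Dlx6 (2.56-fold) of the distal Dlx locus. The lists for Barx2 (69 cells) and Dmrta2 at E9.5 had largest folds of 3.103 (Dcun1d3) and 3.13 (Scube1).

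Between the stages, all kept E12.0 cells against the E9.5 epithelium gate gave a log2 ratio of 6.09 (4.86 to 7.71) for Dmrt2, 3.88 (3.66 to 4.10) for Barx2, 2.62 (2.24 to 3.03) for Pax9 and 2.53 (2.37 to 2.69) for Barx1. Dmrta2 was at -0.19 (-0.38 to -0.01), and Pax1 was lower at E12.0, at -3.68 (-4.20 to -3.18). Stage, sorting, dissociation, library and read counting cannot be told apart in these values, which are given as a description. The matrix headers name different Cell Ranger versions for the stages, and the gene lists of the libraries differ. The E9.5 side matters, and for Pax9 it changed the sign. Against the Foxa-positive Epcam cells of E9.5 in place of the epithelium gate, the Pax9 ratio over all E12.0 cells was -1.41 (-1.65 to -1.17), and that of the E12.0 Foxa cells was 0.93 (0.65 to 1.21). Over all E12.0 cells against the same E9.5 cells, Barx1 was at 0.99 (0.77 to 1.20) and Pax1 at -6.83 (-7.34 to -6.36). Dmrta2 was then at -0.61 (-0.94 to -0.27), Barx2 at 5.11 (4.36 to 5.98) and Dmrt2 at 5.96 (3.48 to 11.3).

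Other genes of the same families and of neighbouring programmes were followed by lists. Of 7 other Pax genes, only Pax2 in the E9.5 epithelium gate (log2 ratio 2.37) and Pax3 in Hand2-negative mesenchyme (2.27) were evaluated and called, both higher. Of 5 other Dmrt genes, Dmrtb1 was evaluated at E12.0 and was higher in the Foxc1 gate (2.22) and the Foxa gate (1.46) and lower in the Cxcl14 gate (-1.59). Among genes of the pharyngeal pouch network at E12.0, Fgf8 was lower in the Foxc1 gate (-1.45) and the Foxa gate (-1.70) and higher in the Sox2 gate (1.29). Tbx1 was higher in the Sox2 gate (1.23) and the Foxa gate (0.82), and both Tbx1 (-2.56) and Fgf8 (-2.34) were lower in the Cxcl14 gate.

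At E9.5, 4 of 8 pouch genes evaluated were higher in the Foxa-positive Epcam cells and 0 lower, against 10.7% and 4.45% of all genes. They included Nkx2-5 (1.99), Nkx2-6 (1.95) and Eya1 (0.90). In the epithelium gate 4 of 8 were higher and 1 lower, against 10.4% and 4.7%. Those higher were Fgf8 (2.50), Nkx2-6 (1.87), Nkx2-5 (1.01) and Eya1 (0.85), and Tbx1 was lower (-2.35). Nkx2-5, Nkx2-6 and Eya1 were thus called higher in both gates. In mesenchyme Fgf8 (-3.41), Nkx2-6 (-2.67), Nkx2-5 (-2.39) and Eya1 (-0.75) were lower. Without Hand2, Tbx1 was higher (1.97) and Nkx2-5 lower (-2.23).

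Of 11 posterior oral genes that the study names, 9 were higher in the Sox2 gate, against 1.55% of all genes. Without Sox2, which defines the gate, they were 8 of 10, among them Rprm (2.93), Ccn4 (2.02) and Rtl3 (1.63). In the Cxcl14 gate 8 were lower, against 3.46% of all genes, with a median log2 fold of -1.31 against -0.02 over all genes. Only 2 were higher in the Foxc1 gate, Col14a1 (3.43) and Meis1 (1.15), against 3.6%, and 3 in the Foxa gate, against 2.86%. At E9.5, 5 of 8 were higher in the Foxa-positive Epcam cells, against 10.7%, and 4 in the epithelium gate, against 10.4%, where Foxp2 was lower (-2.58). In mesenchyme 5 were lower, against 9.54%, and Foxp2 higher (1.23), and 2 were lower without Hand2, against 2.49%. The study chose this list on the same libraries, so it is not independent evidence of direction.

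Of 10 odontogenic and arch mesenchyme genes, 6 were evaluated at E12.0, and 4 of them were higher in the Cxcl14 gate, with Msx1 at 2.17 and Bmp4 at 1.21, against 2.89% of all genes. Of the same genes 6 were lower in the Foxc1 gate, against 3.71%, 4 in the Sox2 gate, against 1.89%, and 3 in the Foxa gate, against 2.69%. At E9.5 this list was higher in mesenchyme for 4 of 6 genes, among them Dlx1 (1.67) and Dlx5 (1.32), against 1.91%, and Bmp4 was lower (-1.68). In the Foxa-positive Epcam cells 5 were lower, against 4.45%, and in the epithelium gate 4 were lower, against 4.7%, and Bmp4 higher (1.62). In Hand2-negative mesenchyme 4 of 6 were lower, against 2.49%. Without Hand2 itself, which defines the split, they were 3 of 5, among them Msx1 (-1.12).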

How the data were processed

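Droplet 3′ libraries (10x Chromium) were made from 1 pool of embryos per stage. The authors deposited filtered matrices of whole-number UMI counts per gene and barcode, with no normalization. The study's methods and the submitters' processing notes name Cell Ranger 2.0.0 and GRCm38, while the matrix headers name 3.1.0 (E12.0) and 6.1.2 (E9.5). Which of these made the counts is not known.

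Cells with 200 to 5500 genes and at most 10% mitochondrial UMIs were kept, as in the study, leaving 11355 of 11663 barcodes at E12.0 and 12744 of 14293 at E9.5. The cell number that the study states is below the kept number at E12.0 and between kept cells and barcodes at E9.5. UMIs of a gate were summed and divided by the gate's total (CPM), with exact Poisson intervals, exact conditional binomial intervals for ratios and Clopper-Pearson intervals for shares. These cover counting error only. For shares and joint detection, each cell was thinned to 4000 UMIs (seed 1), which left out 916 cells at E12.0 and 1715 at E9.5. Doublets were called with Scrublet in scanpy 1.11.5 and kept, except where stated. At E12.0 sorting for single cells preceded the library, and at E9.5 no sort was made. Sequences came from RefSeq (5 of 6 members matched) and gene positions from GENCODE vM21.

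The members, gates and lists were chosen with earlier results of these data known. The text names the 6 members, their family genes, the fixed lists by count with up to 4 examples, and the 5 leading companion genes of a member where at least 50 cells carry it. Alternatives changed depth, doublets, mitochondrial and gene limits, cell weight, the added CPM, the fold, gate thresholds and the sex of cells. Python 3.11.15, numpy 2.4.6 and scipy 1.17.1 were used. Some genes of the pouch list and of the companion lists are not reported here.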

Additional observations from a re-analysis of the deposited data

Results flagged for a closer look

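The barcodes that the filters removed also carried members above the limit that a count of 0 allows. In 14 E12.0 barcodes over the gene limit, Barx1 was at 77.4 CPM and Barx2 at 99.1 CPM, close to 73.2 and 95.6 CPM in kept cells. In 294 E12.0 barcodes over the mitochondrial limit (median 1134 UMIs), Pax9 was at 15.3 CPM, Barx1 at 30.7 CPM and Barx2 at 58.2 CPM. In 1129 E9.5 barcodes over the gene limit (median 33510 UMIs), Pax1 was at 9.42 CPM, Pax9 at 4.98 CPM, Barx1 at 27.3 CPM, Barx2 at 2.46 CPM and Dmrta2 at 8.08 CPM.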

How the results depend on the processing

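No paired analysis was possible because each stage is 1 library, and no replicate could be left out. Of 150 recomputed counts of members called, 14 moved by over 1.5 times. Of 369 recomputed log2 ratios, 240 stayed within the interval of the reported value, the others left it, and 13 changed sign. Of these 13, 1 was past the fold as reported, Barx1 in the Foxa gate, at -0.102 with a doubled gate threshold. Of 42 recomputed shares of cells 8 stayed within the interval and 34 did not. Of 16 counts of pairs 6 moved by over 1.5 times, and of 54 joint ratios 43 stayed within the interval. In the E9.5 mesenchyme gate 1 member was higher, in place of 0, with each cell weighted equally, without called doublets, with 1 CPM added, in cells with a Y-linked UMI and with a doubled threshold. At E12.0, 1 member was lower, in place of 0, in the Sox2, Foxc1 and Foxa gates with at most 5% mitochondrial UMIs, in the Foxc1 gate with a doubled threshold and in the Sox2 and Foxc1 gates with exclusive gates. In the E9.5 epithelium gate 1 member was higher at 2-fold and with a doubled threshold, and 4 with no ectodermal marker required, in place of 2. The Hand2 ratio of Barx1 was -1.060 with no upper gene limit, -1.448 in Xist-positive cells without Y-linked UMIs, -0.867 in cells with a Y-linked UMI and -0.801 with a doubled threshold. Of the E9.5 pairs, 2 were found together less often without thinning. At 2000 UMIs 0 were found more often and 0 less often, since too few joint cells were expected. With at least 2 UMIs of each gene 1 was found more often and 2 less often, Pax9 with Barx1 was at 0.786, and at E12.0 1 pair was found less often. Apart from the cases whose construction states it, the cause was not tested. Depth limits Pax1 at E12.0 (41 UMIs) and Dmrt2 at E9.5 (17 UMIs).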
